A study of Mus musculus with 24 samples.

Results

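CD11b+ cells isolated from the spleen of mice without STAT6 (STAT6-KO) were compared with those of wild-type (WT) mice on 8 Agilent expression arrays of the 24 in the series. The arrays were chosen by their labels, 4 STAT6-KO and 4 WT, and paired by group: control mice and mice at 1, 2, and 4 weeks after myocardial infarction (MI). All mice were male, 10 weeks old, and on a Balb/C background. The allele of the STAT6-KO line is not given in the sources used here. Each array held RNA from bead-isolated CD11b+ cells that were pooled from 5 mice, so no group had a second array and the spread between mice was not measured. The 4 pairs took the place of replicates, and unless another test is named, p-values come from a limma fit of time point and genotype whose residual spread was estimated over 11 spleen arrays, 3 of them from mice without histidine decarboxylase (HDC-KO). The 4 arrays of a genotype shared a slide and lay on it in the order of the time points, so genotype cannot be told apart from slide, nor time point from place on the slide.

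STAT6 is the transcription factor that carries the signal of IL-4 and IL-13 from their receptors to the nucleus. After phosphorylation by JAK kinases, it pairs up and binds DNA at inverted TTC and GAA repeats, with a spacer that is longer by a base than the one used by most other STATs. In macrophages it is known for switching on a type 2 program of lectins, chemokines, and enzymes, and in lymphocytes for T helper 2 differentiation and IgE switching.

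Levels are given as the log2 of the background-subtracted signal minus the 75th percentile of the array, so that 0 marks a signal at that percentile. Differences are STAT6-KO minus WT on this log2 scale. That percentile corresponded to a signal of 1587 to 1734 on the WT arrays and of 928 to 1762 on the STAT6-KO arrays, and 70.4 to 78.4% and 75.1 to 77.4% of the spots were well above background. The number of arrays limits the precision. Itgam, which encodes CD11b, was well above background on all 8 arrays (3.92 to 4.83 in WT and 3.52 to 4.23 in STAT6-KO), and its difference did not pass the test (-0.37 ± 0.22 SE, adjusted p = 0.345).

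The targeted gene was measured by 3 probes, and none of them lost its signal in STAT6-KO. On the probe with the highest signal, Stat6 lay at 2.38, 2.79, 2.75, and 2.90 in WT (control, then 1, 2, and 4 weeks) and at 1.94, 2.34, 2.44, and 2.12 in STAT6-KO. Each STAT6-KO array was below its WT partner, and the groups overlapped by the margin between 2.38 and 2.44. The mean difference was -0.50 ± 0.15 (SE), or 70.9% of WT, with an adjusted p of 0.118. The other probes fell further, to 46.6% of WT (-1.10 ± 0.23, adjusted p = 0.0538) and to 33.8% (-1.57 ± 0.30, adjusted p = 0.0469). On these, the STAT6-KO arrays of control mice and of 1 and 2 weeks lay between -1.72 and -0.29. The array labelled STAT6-KO MI 4 weeks lay at 0.73 and 0.20, within the WT ranges of 0.05 to 1.29 and -0.43 to 1.08. An exact two-sided sign-flip permutation test over the pairs gave p = 0.125 for each probe, the smallest p that 4 pairs allow. The sources used here do not say which exons were removed, so whether a probe lies in the deleted part is not known. Counts of called genes are therefore given with and without the array labelled STAT6-KO MI 4 weeks.

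Of 26472 genes and transcripts tested, 177 (0.669%) were higher and 340 (1.28%) were lower in STAT6-KO, with an adjusted p under 0.05 in limma. All 517 had the same sign in 4 of 4 pairs, which is no separate evidence, since the test's spread comes partly from these pairs. Of the 517, 374 were past 2-fold on average, and 323 had a gene symbol (125 higher, 198 lower). Counted without a test, 64 genes (0.242%) were more than 2-fold higher and 119 (0.45%) more than 2-fold lower in all 4 pairs. In a single pair, 10.8 to 13.1% of the genes were past 2-fold. The median difference over all genes was -0.06, and the pair medians ran from -0.14 at 2 weeks to 0.002 in control mice. The count of called genes was 215 without the array labelled STAT6-KO MI 4 weeks, and it was 144 on the 8 arrays alone, 72 without time point in the fit, and 964, 56, 63, and 30 without the pair of control mice, 1, 2, and 4 weeks. Quantile normalization in place of the 75th percentile called 173 genes higher and 206 lower.

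Many of the called genes were dim. Of the 517, 326 were well above background on all 8 arrays, and 92 were not above background on any array of the genotype in which they were lower, so that at most a bound can be given for them. The median level of the 5626 genes that were above background on none of the 8 arrays ranged from -8.81 to -8.32 in WT and from -9.23 to -8.35 in STAT6-KO. When the background was corrected by normexp in place of the scanner's subtraction, 4 genes passed (Ctps2, Nab2, Oas1a, and Oas1f, all higher). The description therefore centres on the genes of high signal, which were singled out after the values were seen, and takes the type 2 program first. Genes of high signal are the called genes well above background on all 8 arrays with a mean level above 0. There were 43 of these (37 with a symbol, 20 higher and 23 lower) among 8385 genes of such signal, or 0.513%. Of the 43, 7 passed on the 8 arrays alone, 5 without time point in the fit, and 10 without the array labelled STAT6-KO MI 4 weeks (Ctps2, Nab2, Galnt6, Glo1, CB193388, Nrgn, Fanca, Slamf8, Nlrp1a, and H2-Q8). Ctps2 and Nab2 were the 2 that passed without the whole 4-week pair, and all 43 kept their sign without that array.

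Ccl24 and Mgl2 were the members of the type 2 program that passed the test, and both were lower. Ccl24 encodes eotaxin-2, a chemokine of macrophages that draws eosinophils through CCR3. With mean levels of 0.05 in WT and -3.47 in STAT6-KO, Ccl24 is not among the 43 genes of high signal. The Ccl24 level was 0.70, 0.21, -0.39, and -0.32 in WT and -3.27, -2.77, -3.55, and -4.30 in STAT6-KO. All 4 STAT6-KO arrays lay far below the lowest WT array, by 2.98 to 3.99 within the pairs, and the mean difference of -3.52 ± 0.23 (11.5-fold) had an adjusted p of 0.00173. The difference was -3.37 (adjusted p = 0.0217) without the pair at 4 weeks. Ccl24 also fell in bone marrow (-2.75, adjusted p = 0.005), whereas HDC-KO spleen arrays set against the same WT arrays gave 0.52 (adjusted p = 0.279).

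Mgl2 encodes CD301b, a galactose-type lectin of macrophages and dendritic cells. Its level was 3.71, 5.04, 4.98, and 4.68 in WT and 3.06, 3.36, 2.94, and 2.93 in STAT6-KO. The groups did not overlap, and the gap was narrowest in control mice, where the pair differed by -0.65 against -1.68 to -2.03 after MI. The mean was -1.53 ± 0.22 (2.89-fold, adjusted p = 0.0207), and without the 4-week pair it was -1.46 and no longer passed (adjusted p = 0.135). HDC-KO gave -1.39 (adjusted p = 0.0324), and bone marrow gave -0.77 (adjusted p = 0.0804).

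The rest of the type 2 list did not follow them. Of its 22 members tested, 0 were higher and 2 were lower, 11 lay above 0 and 11 below, and the median was 0.02. Arg1, the arginase of alternatively activated macrophages, was dim and gave -1.09 ± 0.58 (adjusted p = 0.304). Chil3, a chitinase-like protein of the same cells, gave -0.61 ± 0.33 (adjusted p = 0.302), and Retnla gave -0.39 ± 0.35 (adjusted p = 0.543). Mrc1, the mannose receptor, lay on the other side, at 3.37, 1.66, 1.84, and 1.78 in WT and 3.71, 4.17, 3.71, and 3.18 in STAT6-KO. Its difference of 1.53 ± 0.33 was above 0 in 4 of 4 pairs and did not pass (adjusted p = 0.0586), and neither did that of Pparg, a nuclear receptor of macrophages (0.90 ± 0.20, adjusted p = 0.0636). Among the 17 genes of the IL-4 receptor, the JAK kinases, the other STATs, and the SOCS inhibitors, 0 passed, and their median was -0.01. Cish, an inhibitor induced by STAT5 and STAT6, gave 0.68 ± 0.23 (adjusted p = 0.133), and Il4ra gave 0.35 ± 0.23 (adjusted p = 0.391).

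The plot of levels on the 8 arrays shows these genes beside others described below.

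**Figure D1:**
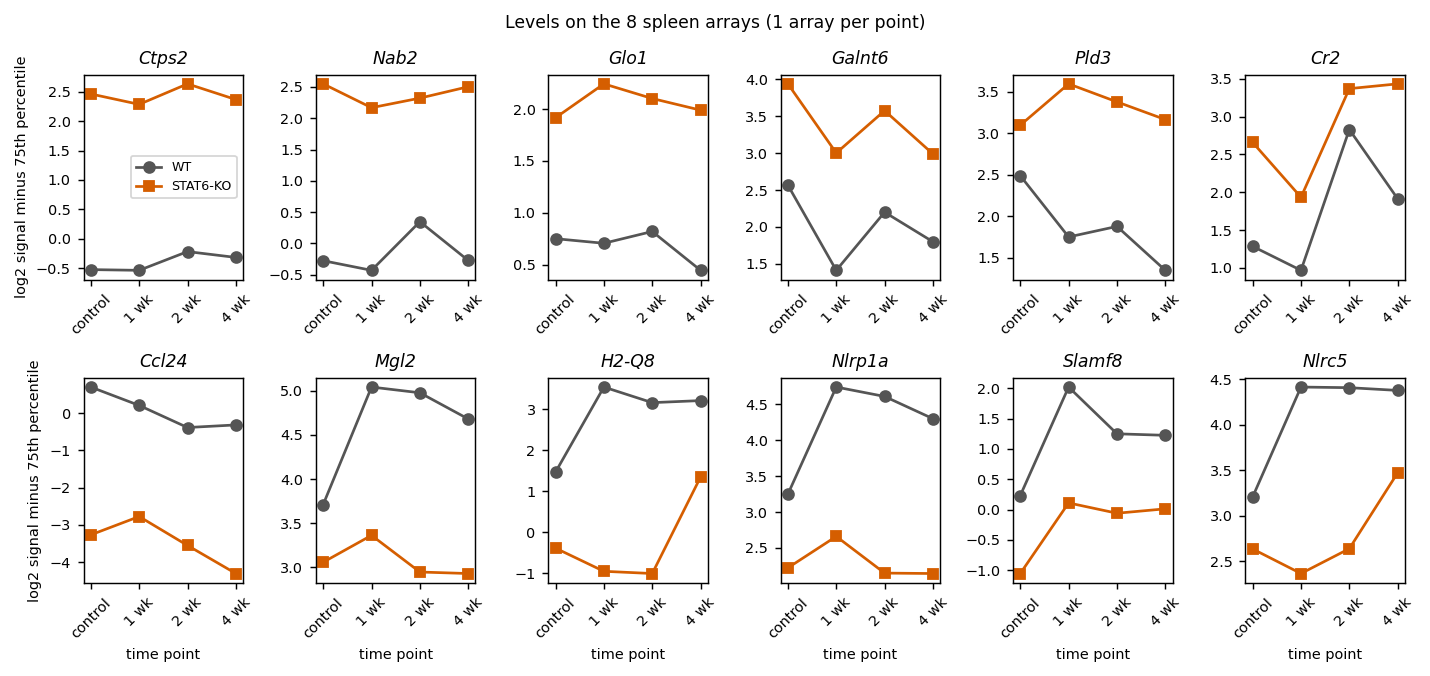
Level of 12 genes (log2 signal minus the 75th percentile of the array) against time point, 1 array per point, with WT in grey circles and STAT6-KO in orange squares. The y axes differ between panels; the lines join arrays of a genotype and carry no error. The genotypes do not overlap for Ctps2, Nab2, Glo1, or Ccl24, while Cr2 at 2 weeks in WT (2.83) lies above 2 of the STAT6-KO arrays (1.93 and 2.66).

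The sequence before the start of transcription is shown for 3 genes that were lower in STAT6-KO: Mgl2 as the type 2 member that has an entry in the promoter table, Tgtp1 as the called member of the interferon-induced GTPases, and Nlrp1a as a called gene of high signal that holds the STAT6 spacing. The 250 bases before the start were read from RefSeq promoters (GRCm38.p6), 5′ to 3′ on the strand of the gene. Capitals mark TTCNNNNGAA (the STAT6 spacing) in Nlrp1a and TTCNNNGAA (the spacing of most other STATs) in Tgtp1. Both motifs read the same on either strand, and neither overlaps the other here.
Mgl2 (chr11:70130107-70130356, plus strand): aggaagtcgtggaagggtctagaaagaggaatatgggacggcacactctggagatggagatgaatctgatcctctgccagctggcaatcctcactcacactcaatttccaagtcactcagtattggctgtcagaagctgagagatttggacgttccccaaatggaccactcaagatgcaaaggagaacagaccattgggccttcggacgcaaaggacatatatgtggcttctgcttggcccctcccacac
Tgtp1 (chr11:48992247-48992496, minus strand): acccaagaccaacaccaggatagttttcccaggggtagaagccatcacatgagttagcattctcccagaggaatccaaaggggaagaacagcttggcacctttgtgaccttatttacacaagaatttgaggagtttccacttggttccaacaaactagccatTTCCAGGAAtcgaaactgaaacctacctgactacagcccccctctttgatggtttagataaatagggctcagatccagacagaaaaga
Nlrp1a (chr11:71144705-71144954, minus strand): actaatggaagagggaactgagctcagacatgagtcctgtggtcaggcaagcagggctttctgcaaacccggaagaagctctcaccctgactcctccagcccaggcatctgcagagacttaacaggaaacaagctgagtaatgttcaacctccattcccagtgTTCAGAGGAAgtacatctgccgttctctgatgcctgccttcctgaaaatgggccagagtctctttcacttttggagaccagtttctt

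The match TTCCAGGAA begins 88 bases before the start in Tgtp1, and TTCAGAGGAA begins 87 bases before the start in Nlrp1a. Mgl2 holds neither motif in this window. TTCNNNNGAA was found in 8 of the 100 genes called higher that had an entry (8%) and in 5 of the 148 called lower (3.38%), beside 5.87% of the 13827 tested genes with an entry. TTCNNNGAA was found in 3 (3%) and 17 (11.5%) of the same genes, beside 7.61%. These are letter matches and no record of binding.

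Ctps2 and Nab2 were the genes of high signal with the largest rise, and both passed the test under all 17 alternative settings that were run for single genes. Ctps2 encodes CTP synthase 2, which makes CTP from UTP. Its level was -0.53, -0.54, -0.22, and -0.32 in WT and 2.46, 2.28, 2.63, and 2.37 in STAT6-KO. The arrays of each genotype lay close together and the pairs differed by 2.69 to 2.99, with a mean of 2.84 ± 0.12 (7.15-fold, adjusted p = 0.000236). The second probe gave 3.05 ± 0.16. The same rise was measured in bone marrow (3.22, adjusted p = 0.00113), and HDC-KO spleen against the shared WT arrays gave 3.09 (adjusted p = 0.000288).

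Nab2 encodes a corepressor of the EGR transcription factors, and it is the measured gene nearest to Stat6 on the chromosome. Its level was -0.28, -0.43, 0.35, and -0.27 in WT and 2.55, 2.17, 2.32, and 2.50 in STAT6-KO. The groups did not overlap, and the pairs differed by 1.98 to 2.83 with a mean of 2.54 ± 0.18 (5.83-fold, adjusted p = 0.00203). A second probe gave 1.33 ± 0.28 (adjusted p = 0.0552). Nab2 rose in bone marrow as well (3.95, adjusted p = 0.00128), and HDC-KO spleen gave 0.39 (adjusted p = 0.303).

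The reference gene table (GRCm38.p6) lists 134 genes within 1 Mb of Stat6, of which 79 were on the array and 75 were tested. Nab2 was the 1 called gene among them, and 71 of the 75 were within 2-fold of WT, with a median of -0.09. On the far side of Nab2, Nemp1 gave 0.64 ± 0.17 (adjusted p = 0.0846, with 1.02 and an adjusted p of 0.0319 in bone marrow) and Myo1a gave 0.68 ± 0.14 (adjusted p = 0.057), and on the opposite side of Stat6, Lrp1 gave 0.32 ± 0.25 (adjusted p = 0.48). The array was annotated to another build, so the table served for the order of the genes alone.

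**Figure D2:**
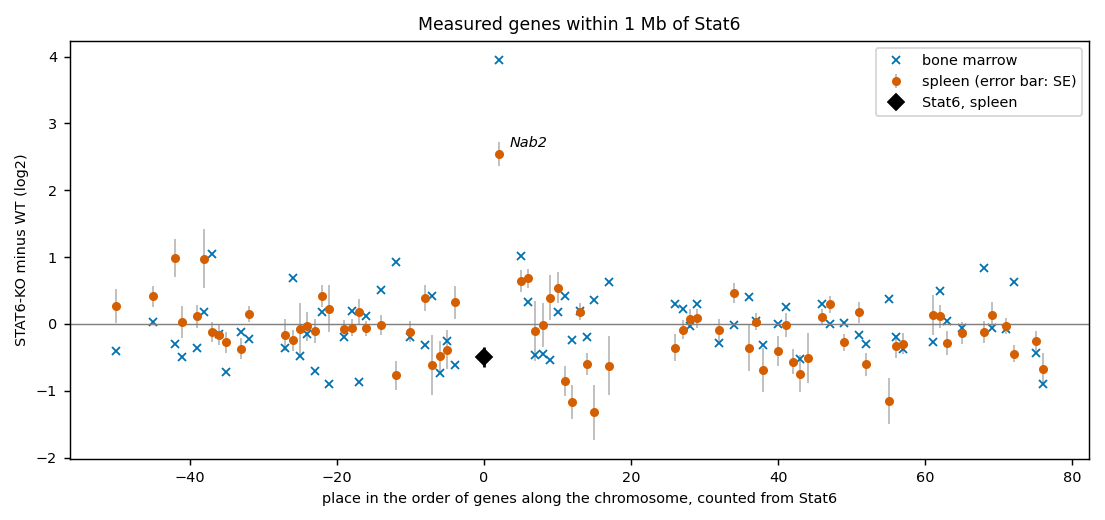
STAT6-KO minus WT difference (log2) of the measured genes within 1 Mb of Stat6, in their order along the chromosome (x axis, counted from Stat6). Orange circles are spleen with the standard error, blue crosses are bone marrow, and the black diamond is Stat6 in spleen at -0.50; Nab2 at 2.54 in spleen and 3.95 in bone marrow stands apart.

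The remaining rises among the genes of high signal were between 0.68 and 1.44. Glo1, the glyoxalase that clears methylglyoxal, lay between 0.45 and 0.82 in WT and between 1.92 and 2.24 in STAT6-KO, a difference of 1.38 ± 0.13 (adjusted p = 0.00575). Bone marrow gave 1.46 (adjusted p = 0.0108) for Glo1, and HDC-KO against the same WT arrays gave 1.51. Galnt6, an enzyme that starts O-glycan chains, was at 2.57, 1.41, 2.20, and 1.80 in WT and 3.94, 3.0, 3.58, and 2.99 in STAT6-KO. Galnt6 differed by 1.19 to 1.59 in the pairs (1.38 ± 0.14, adjusted p = 0.00689), while its second probe gave 0.59 ± 0.22 (adjusted p = 0.172). In HDC-KO spleen, Galnt6 gave 1.22 (adjusted p = 0.0166).

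Pld3, a lysosomal nuclease of the phospholipase D family, was at 2.49, 1.75, 1.88, and 1.35 in WT and 3.10, 3.59, 3.38, and 3.16 in STAT6-KO (1.44 ± 0.26, adjusted p = 0.0409). Its WT level was highest in control mice and its STAT6-KO level changed little, so the pairs differed by 0.61 in control mice and 1.5 to 1.84 after MI. Rcn3, a calcium-binding protein of the endoplasmic reticulum, showed the same order (0.57 in control mice, 1.29 to 1.79 after MI, mean 1.33 ± 0.23, adjusted p = 0.035). Rab3il1, an activator of Rab GTPases, rose by 1.29 ± 0.23 (adjusted p = 0.0417), and Acp5, the tartrate-resistant acid phosphatase of macrophages and osteoclasts, by 0.82 ± 0.15 (adjusted p = 0.0448). Ddit4, a stress-induced inhibitor of mTORC1, rose by 1.15 ± 0.22 (adjusted p = 0.0483), and St6gal1, which adds sialic acid to glycans, by 0.85 ± 0.14 (adjusted p = 0.0297). The second probe of St6gal1 gave 0.29 ± 0.22 (adjusted p = 0.467). In HDC-KO spleen, Acp5 gave 0.85 and Ddit4 gave 1.27 (adjusted p = 0.0462 and 0.0431). Pld3, Rcn3, Rab3il1, and St6gal1 gave 1.0, 0.85, 0.63, and 0.71 there without passing.

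Markers of other cells were among the rises. Cr2, the complement receptor CD21 of B cells, was at 1.29, 0.97, 2.83, and 1.91 in WT and 2.66, 1.93, 3.37, and 3.43 in STAT6-KO (1.1 ± 0.20, adjusted p = 0.0431). The groups overlapped, with every STAT6-KO array above its WT partner. All 12 B cell markers were well above background on all 8 arrays, and their summed level (in units of the 75th percentile) ranged from 25.9 to 82.5 in WT and from 41.1 to 100 in STAT6-KO. Cr2 was the 1 marker of 12 that passed, and the list's median was 0.61. The B cell pair medians were 0.67 in control mice and 0.64, -0.08, and 1.15 after MI. The B cell median was 0.54 in HDC-KO spleen and -0.31 in bone marrow. Lat, the adaptor of the T cell receptor, rose by 0.86 ± 0.14 (adjusted p = 0.0288) as the 1 of 13 T cell markers that passed. In HDC-KO spleen, Lat gave 1.27 (adjusted p = 0.0142) and Cr2 gave 0.72 (adjusted p = 0.121). T cell markers had a median of 0.35 and a summed level of 12.8 to 29.7 in WT and 12.2 to 26.8 in STAT6-KO, and Cd3e gave -0.16 ± 0.24 (adjusted p = 0.718). Their pair medians were 0.53 in control mice and 0.32, -0.08, and 0.41 after MI. The T cell median was 0.93 in HDC-KO spleen and 0.06 in bone marrow. The part of B and T cells in these differences was not tested, and in RNA of pooled cells more cells of a type and more RNA per cell cannot be told apart.

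Among the falls of high signal, H2-Q8, a class I gene of the Qa region, fell by 3.09 ± 0.46 on the log2 scale (8.53-fold, adjusted p = 0.0244). Its level was 1.47, 3.54, 3.16, and 3.21 in WT and -0.39, -0.95, -1.0, and 1.35 in STAT6-KO. No STAT6-KO array reached the lowest WT array, and the pairs in control mice and at 4 weeks (-1.85 and -1.86) differed less than those at 1 and 2 weeks (-4.49 and -4.16). The Qa genes are near copies of each other, so the probe may not tell them apart. Bone marrow gave -2.69 (adjusted p = 0.0377) and HDC-KO gave -2.60.

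Nlrp1a encodes a sensor that forms an inflammasome. Its level was 3.25, 4.74, 4.61, and 4.30 in WT and 2.22, 2.66, 2.15, and 2.14 in STAT6-KO. WT rose between control and MI arrays while STAT6-KO stayed between 2.14 and 2.66, and the mean difference was -1.93 ± 0.23 (3.82-fold, adjusted p = 0.0114). A second probe of Nlrp1a gave -0.43 ± 0.15 (adjusted p = 0.144). Bone marrow gave -2.03 (adjusted p = 0.0108), and HDC-KO spleen gave -1.90.

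Nlrc5, the transactivator of class I genes, was at 3.21, 4.41, 4.41, and 4.38 in WT and 2.64, 2.37, 2.64, and 3.47 in STAT6-KO (-1.32 ± 0.25, adjusted p = 0.0473). Its other probe, well above background on all 8 arrays, gave -0.66 ± 0.19 (adjusted p = 0.106). The array labelled STAT6-KO MI 4 weeks was the only one of its genotype above the WT control array. Ciita, the corresponding transactivator of class II genes, fell by 0.62 to 0.94 in the pairs (-0.79 ± 0.14, adjusted p = 0.0409). It was the 1 called gene of 10 in the class II list, whose median was -0.31. H2-DMa, which loads peptides onto class II, gave -0.62 ± 0.13 (adjusted p = 0.0587), and H2-Ab1, a class II chain, gave -0.08 ± 0.18.

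Nod1, a sensor of bacterial peptidoglycan, fell by 0.98 ± 0.17 on the log2 scale (adjusted p = 0.0358). Slamf8, a surface receptor of myeloid cells, was at 0.23, 2.02, 1.25, and 1.23 in WT and -1.06, 0.11, -0.06, and 0.01 in STAT6-KO. Both genotypes had a higher level after MI than in control mice, and the pairs differed by -1.21 to -1.91 (mean -1.43 ± 0.20, adjusted p = 0.0206). Slamf8 also fell in bone marrow (-1.40, adjusted p = 0.0325). HDC-KO spleen gave -1.16 for Slamf8 and -1.06 for Nod1 (adjusted p = 0.0409 and 0.0328).

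Ptgir, the prostacyclin receptor, fell by 1.15 ± 0.19 (adjusted p = 0.0338), Ffar2, a receptor of short-chain fatty acids, by 0.75 ± 0.14 (adjusted p = 0.0426), and the orphan receptor Gpr141 by 0.92 ± 0.17 (adjusted p = 0.0473), all on the log2 scale. Rspo1, an enhancer of Wnt signalling, fell by 1.59 ± 0.30 (adjusted p = 0.0464), with 0.20, 2.46, 1.34, and 2.02 in WT and -0.47, -0.21, 0.10, and 0.24 in STAT6-KO. The 2 Rspo1 groups overlapped at a single array, the STAT6-KO array at 4 weeks against the WT control array. HDC-KO spleen gave -1.05 for Ptgir, -1.28 for Ffar2, and -1.73 for Rspo1 (adjusted p = 0.0482, 0.0142, and 0.0417). Gpr141 gave -0.54 there and did not pass (adjusted p = 0.155).

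Ngp, a protein of the secondary granules of neutrophils, was at 4.65, 5.63, 5.00, and 5.60 in WT and 4.01, 4.27, 3.86, and 3.75 in STAT6-KO. The groups did not overlap (-1.25 ± 0.20, adjusted p = 0.0288). It was the 1 of 12 neutrophil granule genes that passed. All 12 had a difference below 0, with a median of -0.78, and the pair medians were 0.16 in control mice and -0.88, -0.69, and -1.90 after MI. The summed level of the list ranged from 179 to 322 in WT and from 136 to 234 in STAT6-KO. In HDC-KO spleen the list's median was -0.72, and in bone marrow it was 0.42. Among 10 genes of mature neutrophils 0 passed, with a median of -0.02. The part of the granule-bearing cells in the falls was not tested.

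Outside the genes of high signal, Scarf1, a scavenger receptor of endothelial and myeloid cells, was at -2.54, 0.31, -0.76, and -0.75 in WT and -3.58, -3.23, -2.87, and -2.85 in STAT6-KO. Each WT array was above every STAT6-KO array (-2.20 ± 0.38, 4.60-fold, adjusted p = 0.0369). Col1a1, the collagen chain of stromal cells, fell by 1.23 ± 0.17 (adjusted p = 0.0206) as the 1 of 11 stromal markers, while Col1a2, the partner chain, gave 0.15 ± 0.22 (adjusted p = 0.722) and the list's summed level overlapped (14.4 to 37.6 in WT, 15.3 to 29.1 in STAT6-KO).

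Many of the largest differences by size, shown in the plot of the 15 largest rises and falls, came from probes dim in 1 genotype or both. The rises were led by Oas1a, Oas1f, and Oas1g, interferon-induced synthases of 2-5A. Oas1a and Oas1f differed by 9.11 and 6.46. They were low in WT alone (-7.00 to -3.41 and -4.02 to -3.16), and in STAT6-KO they lay at 3.30 to 5.58 and 2.06 to 4.37. Oas1g was not above background in WT and was at least 17.3-fold higher in STAT6-KO. A second Oas1a probe, above background on all 8 arrays, gave 6.55 ± 0.51 (adjusted p = 0.00232), and a second Oas1g probe, above background on 1 of 8, gave 0.93 ± 0.40 (adjusted p = 0.215). These 3 genes are near copies whose probes may cross-hybridise. For Oas1a, Oas1f, and Oas1g, HDC-KO spleen against the same WT arrays gave 9.37, 6.64, and 6.16 (adjusted p = 0.00881, 0.00329, and 0.00342). Bone marrow of STAT6-KO gave 8.62, 6.24, and 5.45 (adjusted p = 0.00138, 0.00138, and 0.00395). The spleen values of Oas1g are set against WT arrays not above background. Gnai1, an inhibitory G protein subunit, was above background on 1 WT array and on all STAT6-KO arrays, and rose by 4.03 ± 0.52 (adjusted p = 0.0169). With signals below background raised to the lowest signal above it, the Gnai1 rise was 2.5 (adjusted p = 0.0224). Smco3 was at -8.04, -8.40, -8.78, and -8.55 in WT, not well above background, and at -4.71, -4.26, -4.94, and -4.87 in STAT6-KO, or at least 4.30-fold higher (adjusted p = 0.00173). HDC-KO spleen gave 0.47 for Smco3 and bone marrow gave 3.03 (adjusted p = 0.00119).

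Other rises of this kind were Sprr2e, a protein of the epidermal envelope (at least 3.61-fold, adjusted p = 0.00433), and Tas2r122, a bitter taste receptor (at least 4.89-fold, adjusted p = 0.00135). Car3, a carbonic anhydrase, was well above background throughout, at -5.73 to -4.61 in WT and -2.64 to -1.50 in STAT6-KO (3.05 ± 0.34, adjusted p = 0.0104). Mcf2, a guanine nucleotide exchange factor, rose by 2.85 ± 0.42 (adjusted p = 0.023), Nrcam, a neuronal adhesion molecule, by 2.72 ± 0.43 (adjusted p = 0.0286), and Armcx4 by 2.99 ± 0.49 (adjusted p = 0.0323). Ror2, a Wnt receptor, and Adcy8, an adenylyl cyclase, rose by 3.28 ± 0.64 and 2.55 ± 0.40, each with 1 of 4 WT arrays well above background (adjusted p = 0.0481 and 0.0287). With the same floor, Ror2 gave 2.16 and no longer passed (adjusted p = 0.103), and Adcy8 gave 2.30 (adjusted p = 0.0172).

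Among the falls, Gm10421 and Tescl were above background in WT alone, and were at least 5.36-fold and at least 4.21-fold lower. Ano7 and the pseudogene Trim30e-ps1 were likewise at least 4.94-fold and at least 2.34-fold lower. Under normexp none of these 4 falls held, with Gm10421 at -0.03, Tescl at 0.20, Ano7 at 0.03, and Trim30e-ps1 at 0.50. Npas1, a transcription factor of neurons, fell by 2.59 ± 0.37 (adjusted p = 0.0207) on its brighter probe, while the other probe, mostly at background, gave 0.02. Tescl had a second probe at -0.02 as well. Wfdc6b, Olfr871, Nxpe5, C130026I21Rik, Syt10, 2810459M11Rik, and Mlip fell by 2.21 to 2.56 on the log2 scale, and none of them passed under normexp. Over the alternative settings the smallest falls were -0.21 for Wfdc6b, -0.31 for 2810459M11Rik, -0.63 for Mlip, and -0.86 for Olfr871. Those of Nxpe5 and C130026I21Rik were -1.71 and -1.66. Wfdc6b was above background on 2 STAT6-KO arrays and Syt10 on 1. A second C130026I21Rik probe gave -0.96 ± 0.28 (adjusted p = 0.102). Past 4-fold in every pair, with no test, were 12 genes higher and 11 lower. Those not named above were Cyp3a11, a cytochrome P450 (4.84-fold higher), the transcript XM_003086111 (at least 2.92-fold higher), Hnf4g and Vmn1r84 (at least 2.35-fold and 2.05-fold lower, but 0.39 and 0.47 under normexp), and the transcripts AK137776, ENSMUST00000135739, and TC1672055, which were lower. AK137776 and Syt10 turned under normexp as well, to 0.06 and 0.07. ENSMUST00000135739 and TC1672055 had smallest falls of -0.19 and -0.85 over the settings.

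**Figure D3:**
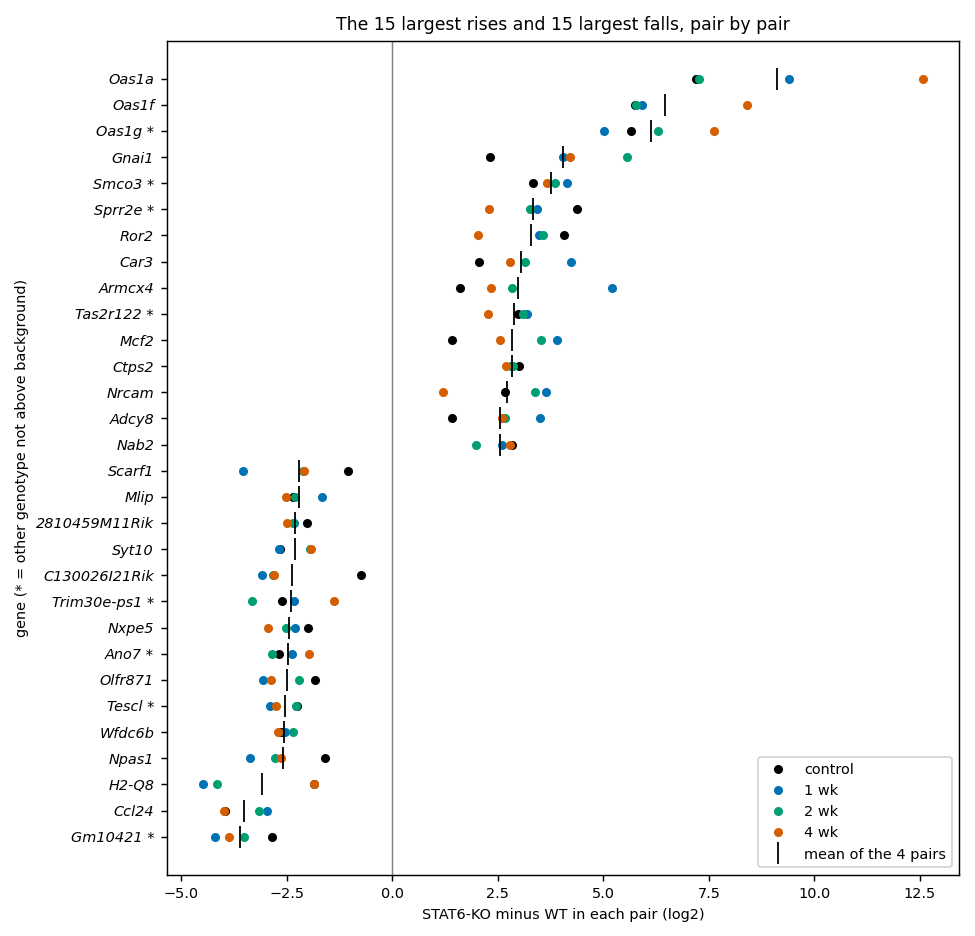
STAT6-KO minus WT difference (log2, x axis) in each of the 4 pairs for the 15 largest rises and 15 largest falls among the called genes with a symbol. Genes entered only with the same sign in all 4 pairs and a signal well above background on all 4 arrays of a genotype. Points are single pairs coloured by time point and the bar is their mean; a star marks genes that were not well above background in the other genotype, whose plotted size is no measure of the fold. All 4 points of each gene lie on the same side of 0, which the choice of genes required.

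Gene lists were then compared as groups, by counts and medians, beside the median of all genes (-0.06) and the shares of all genes called (0.669% higher, 1.28% lower). The share of all genes with the same sign in every pair was not computed, so sign counts stand without that background. Among the 75 tested genes within 1 Mb of Stat6, 25 had the same sign in every pair. Among 14 guanylate-binding proteins and immunity-related GTPases, interferon-induced defenders against intracellular microbes, 13 had a difference below 0 and 10 had the same sign in all pairs. Their median was -1.17, the lowest of the lists, with pair medians of -0.18 in control mice and -2.03, -1.66, and -0.88 after MI. The median of these genes was -1.29 in HDC-KO spleen against the same WT arrays and -1.03 in STAT6-KO bone marrow. Tgtp1 passed (-1.08 ± 0.20, adjusted p = 0.0456) and the other 13 did not, among them Gbp5, a promoter of inflammasome assembly (-1.86 ± 0.41, adjusted p = 0.0621). Gbp5 was at -0.83, 1.52, 1.11, and 1.49 in WT and -1.39, -1.65, -1.41, and 0.30 in STAT6-KO. The WT arrays after MI stood above the rest for Gbp5, and the array labelled STAT6-KO MI 4 weeks was the highest of its genotype.

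The interferon-induced antiviral genes, without the Oas1 genes, went a less even way. All 23 tested had a mean difference below 0 (median -0.87), 0 passed, and 1 had the same sign in every pair. The pair medians were -0.68 in control mice, -1.81 at 1 week, and -1.42 at 2 weeks, against 0.71 at 4 weeks. The median was -1.35 without the array labelled STAT6-KO MI 4 weeks and -1.42 without that pair. In HDC-KO spleen the list's median was -1.11, and in bone marrow it was -0.88. Oasl2 had the largest mean (-2.30 ± 0.73, adjusted p = 0.123), and Zbp1, a sensor of Z-form nucleic acid, was the member below 0 in all pairs (-1.56 ± 0.54, adjusted p = 0.143).

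Markers of red pulp macrophages, the resident cells of the spleen that recycle iron from red cells, had the highest median of the lists (1.08). All 12 were above 0 and 9 had the same sign in every pair, yet 0 passed. Spic, the transcription factor on which these cells depend, was nearest to the threshold (1.43 ± 0.28, adjusted p = 0.0506). Its level was 3.80, 2.27, 2.70, and 2.30 in WT and 4.48, 4.34, 4.23, and 3.73 in STAT6-KO. The WT control array and the STAT6-KO array at 4 weeks overlapped for Spic. Vcam1, an adhesion molecule, gave 1.4 ± 0.29 (adjusted p = 0.056), Hmox1, the heme oxygenase, 1.23 ± 0.28 (adjusted p = 0.0653), and Cd163, the hemoglobin scavenger receptor, 1.76 ± 0.43 (3 of 4 pairs, adjusted p = 0.0744).

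The summed level of the 12 red pulp markers was 164 in the WT control array and 89.1, 101, and 89.1 in the WT arrays after MI. In STAT6-KO it was 203, 230, 190, and 192, so the groups did not overlap. The pair medians were 0.14 in control mice and 1.27 to 1.75 after MI, and the median was 0.96 without the pair at 4 weeks. In HDC-KO spleen the list's median was 0.75, and in bone marrow it was 0.17. Pld3, Acp5, and Mrc1, described above, are also genes of macrophages, and whether this marker list accounts for their differences was not tested.

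Among the other lists, NK cell markers were all 10 below 0, with a median of -0.77 and 0 called. Their pair medians were -1.30 in control mice and -0.69, -1.30, and 0.03 after MI, and 4 had the same sign in every pair. The NK median was 0.10 in HDC-KO spleen and -0.59 in bone marrow. Eomes, a transcription factor of NK cells, gave -1.18 ± 0.24 (adjusted p = 0.0529) and Gzma, a granzyme, gave -1.16 ± 0.24 (adjusted p = 0.0552). Basophil and mast cell markers had a median of -0.88 with 0 of 12 called (median -0.08 in HDC-KO spleen and -0.18 in bone marrow). Their largest difference was that of Mcpt8, a protease of basophils, at -2.05 ± 0.48 (adjusted p = 0.0698), while Hdc, the histamine-forming enzyme of these cells, gave 0.06 ± 0.21. Il4 was higher in all pairs (1.26 ± 0.31) without passing (adjusted p = 0.0769).

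Eosinophil markers were all 9 above 0 (median 0.60, 0 called), with 1.5 ± 0.39 for Ccr3, the receptor of Ccl24 (adjusted p = 0.0842). Their pair medians were 0.26 in control mice and 1.05, 1.70, and 0.09 after MI. The eosinophil median was 0.21 in HDC-KO spleen and 0.98 in bone marrow. Plasma cell markers had a median of 0.90, with pair medians of 2.25 in control mice and 0.52, -0.08, and 1.22 after MI. Monocyte and macrophage markers had a median of -0.17 and dendritic cell markers one of -0.24. Cell cycle genes were all 20 below 0 (median -0.47, 0 called), with pair medians from 0.07 in control mice to -0.95 at 4 weeks. The cell cycle median was -0.63 in HDC-KO spleen and 0.37 in bone marrow. The IL-1 family, the IL-6, TNF, IL-10, and IL-12 genes, the TGF-beta genes, the chemokines (a list without Ccl24), the Toll-like receptors, the Fc receptors, the integrins, the myeloid transcription factors, sex chromosome genes, immediate early genes, heat shock genes, oxidative phosphorylation genes, erythroid cells, and platelets had medians between -0.36 and 0.19 and 0 called.

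**Figure D4:**
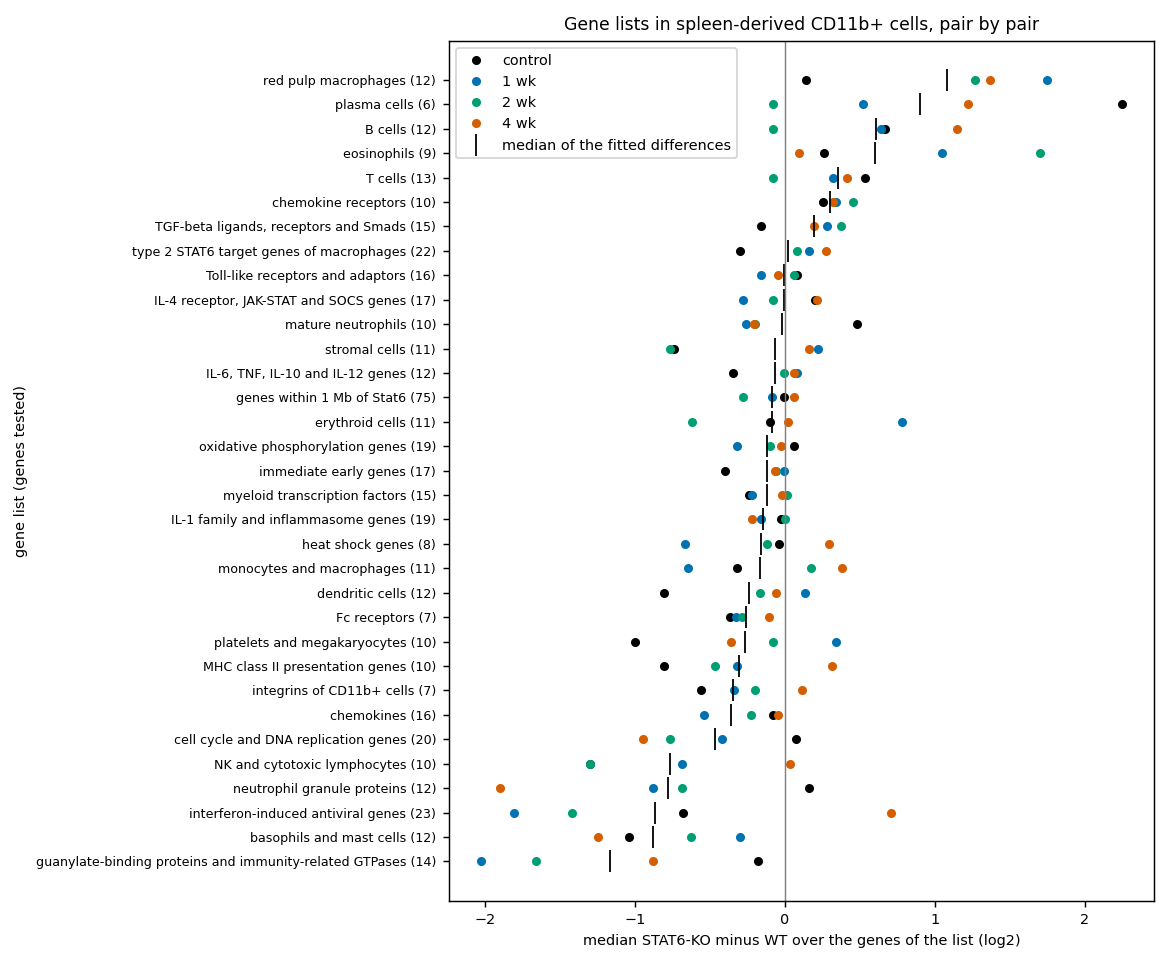
Median STAT6-KO minus WT difference (log2, x axis) over the genes of each list, with the number of genes tested in brackets. Coloured points are the medians within single pairs and the black bar is the median of the fitted differences; no error is drawn, since genes of a list are not replicates. Red pulp macrophage markers lie at the top (1.08) and the guanylate-binding proteins and immunity-related GTPases at the bottom (-1.17), and the control pair lies nearer to 0 than the 3 MI pairs in both.

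To ask whether the genotype difference after MI differed from that in control mice, the mean of the 3 MI pairs was set against the single control pair. In limma, 2 of 26466 genes passed (0.00756%), both with a lower difference after MI, and 2408 had an unadjusted p under 0.05. They were the transcript ENSMUST00000103420 (-8.13), named after its value was seen, and F830016B08Rik. The transcript was at -4.02 on the WT control array against 2.74 in STAT6-KO, and between -1.87 and 0.94 on the MI arrays. F830016B08Rik, a gene of the interferon-inducible GTPase kind, was at -4.59, -1.14, -1.85, and -0.93 in WT and at -4.54, -4.57, -5.44, and -4.55 in STAT6-KO. The genotypes were alike in control mice, and only WT stood higher after MI, so the difference moved by -3.60 ± 0.27 (adjusted p = 0.0428). For Mgl2, Nlrp1a, Nlrc5, Pld3, and Spic, whose pairs were also wider after MI, this test was not passed (adjusted p of 0.303, 0.314, 0.622, 0.557, and 0.681). This comparison rests on 1 control pair, and 0 genes passed without the pair at 1 week, without that at 2 weeks, or without the array labelled STAT6-KO MI 4 weeks.

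Bone marrow arrays of the same genotypes were used to see which differences held in both tissues. STAT6-KO had 3 such arrays (none at 1 week) and WT had 4, and 1248 of 27090 genes were called there (4.61%). Of the 517 called spleen genes, 492 were also tested in bone marrow, 241 (49%) had the same sign there, beside 51.9% of the 25949 genes tested in both tissues, and 74 were called there, 52 in the same direction. Of the 43 genes of high signal, 8 were called in bone marrow in the same direction: Ctps2, Nab2, Glo1, Luzp1, H2-Q8, Nlrp1a, Rspo1, and Slamf8. In HDC-KO spleen, 742 of the 26472 genes tested were called in all. Of the 517 called genes, 416 had the same sign there, and 147 were called in the same direction. The share of all genes with the same sign in both knockouts was not computed. Of the 43 genes of high signal, 42 had the same sign in HDC-KO spleen and 20 were called in the same direction. Both knockouts were set against the same WT spleen arrays, so the comparisons are not independent. Which of the differences are particular to STAT6-KO was not tested. A fit of the difference between tissues over 10 conditions called 331 of 27659 genes (1.2%), 22 with a higher and 309 with a lower STAT6-KO effect in spleen, and 76 of these were among the 517. The fit called 0 genes when any of the 4 time points was left out and 555 without the array labelled STAT6-KO MI 4 weeks.

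Among the genes of high signal, 4 differed between the tissues. Ngp fell in spleen and gave 0.36 in bone marrow, a difference between tissues of -1.61 ± 0.20 (adjusted p = 0.0311). Ptgir gave 0.40 in bone marrow (difference -1.40 ± 0.20, adjusted p = 0.0389), and Arhgap1, a GTPase activator, gave 0.98 (difference -1.67 ± 0.25, adjusted p = 0.0408). Luzp1 rose by 0.84 in spleen and by 2.42 in bone marrow (difference -1.50 ± 0.22, adjusted p = 0.0408), with 1 of its other probes at -0.67 in spleen. For Ccl24, Ctps2, Nab2, and Mgl2 the tissues did not pass this test (adjusted p of 0.136, 0.389, 0.0844, and 0.197).

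**Figure D5:**
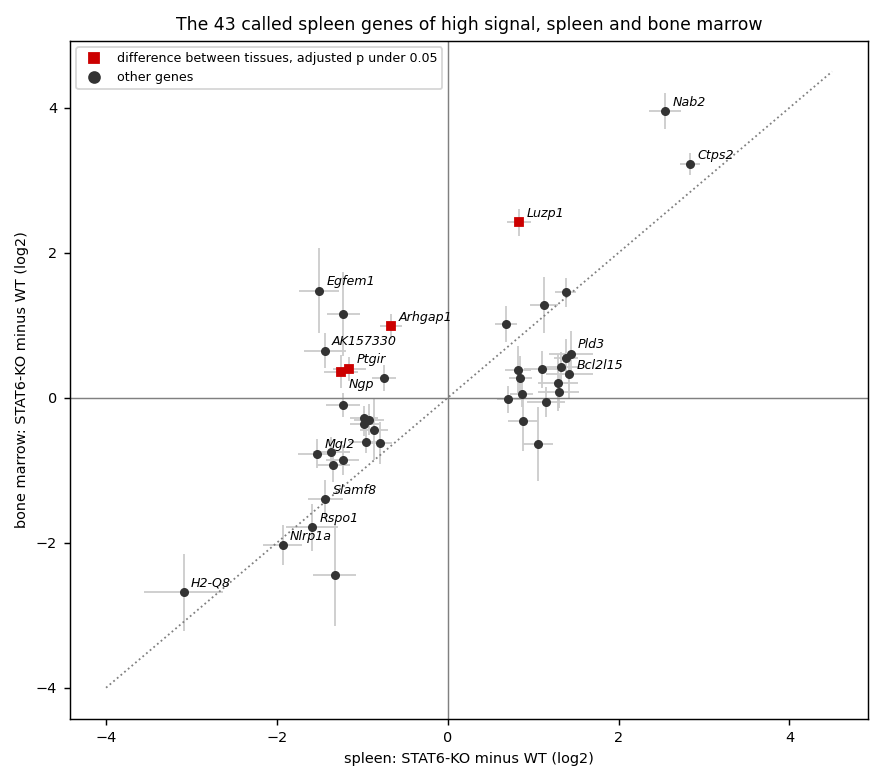
STAT6-KO minus WT difference (log2) in spleen (x axis) and bone marrow (y axis) of the 43 called spleen genes of high signal, with standard errors. Red squares are the 4 genes whose difference between tissues passed the test, and the dotted line marks equal differences; Ctps2 and Nab2 lie at the upper right and H2-Q8 and Nlrp1a at the lower left in both tissues.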

How the data were processed

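Total RNA of CD11b+ cells was hybridised to 1-colour Agilent arrays, and the authors deposited the scanner intensity files of Feature Extraction 11.0.1.1. The values used were the background-subtracted, processed signal intensities as deposited. The normalized output of the Genespring software named in the study's methods was not used here. The log2 of the signal was taken with no pseudocount, and values were expressed relative to the 75th percentile of their array. Control spots and outlier spots were left out, spots of a probe were averaged, and a gene was represented by its probe with the highest mean. A gene was tested where it was well above background on at least 2 arrays.

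Genotypes were compared with limma (version 3.58.1, R 4.3.3), by time point and genotype on the 11 full spleen arrays (WT, STAT6-KO, and 3 HDC-KO), with Benjamini-Hochberg adjustment over all genes and a threshold of 0.05. The pairs are time points given by the labels, not shared animals, and the pair differences correlated over genes at 0.21 to 0.49. The differences after MI and between tissues were tested as interactions. The scripts were tested on simulated data. Plots came from matplotlib 3.10.9 (python 3.11.15).

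Genes were named by rule: Stat6, the 15 largest rises and falls among called genes with a symbol, genes past 4-fold in every pair, called members of the gene lists and up to 4 further members of each list described, genes within 1 Mb of Stat6, and the 5 largest of each interaction in each direction. To count among the 15 largest, a gene also needed the same sign in every pair. It further had to be well above background on every array of at least 1 genotype. The members and gene lists were chosen with earlier results of these data known. The genes of high signal were singled out after the values were seen, and so were the further list members and the neighbours of a named gene that fall outside the rule. A gene not well above background on any array of a genotype has only a bound there, computed against the higher of its own signal and the lowest signal well above background on each array. Alternatives covered the background correction, the scaling, the filter on dim probes, the choice of probe, the threshold, the block, and each time point left out. Some called genes and list members are not reported here.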

Additional observations from a re-analysis of the deposited data

Results flagged for a closer look

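The STAT6-KO difference in spleen departed from that in bone marrow, by the test of the difference itself, for 20 genes named by rule or described above. Differences are spleen minus bone marrow on the log2 scale with adjusted p-values of limma, over matched time points. No group had more than 1 array per time point, so arrays could not be set against others of their own group.

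Most of these had a lower difference in spleen. Tmem100 was at -5.39 (adjusted p = 0.0104), Ano7 at -5.34 (0.0256), Vmn1r174 at -4.61 (0.0309), the transcript ENSMUST00000135739 at -4.51 (0.0272), and Vmn1r84 at -4.43 (0.0318). Mageb16 was at -4.37 (0.025), Wfdc6b at -4.36 (0.0256), 2810459M11Rik at -3.42 (0.025), and Olfr871 at -3.29 (0.025). The fitted means of all 9 were below 0 in spleen and above 0 in bone marrow. Tmem100 was above background on 0 of 8 spleen arrays, the Mageb16 difference in spleen did not pass (-0.92, adjusted p = 0.211), and others were dim.

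The brighter ones were Tgtp1 at -1.75 (adjusted p = 0.049), Arhgap1 at -1.67 (0.0408), Ngp at -1.61 (0.0311), Luzp1 at -1.50 (0.0408), Scarf1 at -1.43 (0.0441), and Ptgir at -1.40 (0.0389). Luzp1 was higher in STAT6-KO in both tissues, and Scarf1 was lower in both (-2.20 in spleen and -0.33 in bone marrow).

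A higher difference in spleen was measured for Skint1 at 2.26 (adjusted p = 0.0265), Btnl5-ps at 2.36 (0.0252), Olfr819 at 2.51 (0.0359), Ube2ql1 at 2.84 (0.039), and Gnai1 at 4.51 (0.0427). Skint1, Olfr819, and Ube2ql1 did not pass the genotype test in spleen itself (adjusted p = 0.0866, 0.0715, and 0.16). Ube2ql1 was above background on 0 WT and 2 STAT6-KO spleen arrays. Btnl5-ps alone passed the filter in the bone marrow fit, and its other probes gave 0.03 and -0.32 in spleen. Between MI and control arrays of spleen, the difference of F830016B08Rik moved by -3.60 (adjusted p = 0.0428).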

How the results depend on the processing

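The count of 517 called genes became 4 under normexp background correction (offset 50, on the median spot signal), 144 on the 8 WT and STAT6-KO arrays alone, 215 without the array labelled STAT6-KO MI 4 weeks, 50 at an adjusted p under 0.01, and 2105 under 0.1. Leaving out each time point in turn gave 30 to 964. An unpaired t-test of the STAT6-KO against the WT arrays, with the paper's fold and p thresholds, gave 792 genes. With Benjamini-Hochberg adjustment it gave 21. This t-test pools the time points and is no repeat of the authors' comparison. In the limma fit without the replicate block of time points, the count was 72, all among the 517. Other settings gave 379 to 669. Stat6 passed with the mean over its probes (-1.055, adjusted p = 0.0411). On its probe of highest signal it did not pass, and without the replicate block that probe gave -0.497 (adjusted p = 0.368).

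The count of 183 genes past 2-fold in every pair became 52 under normexp, 121 with a floor at the lowest signal above background, 73 where every array had to be above background, 614 at 1.5-fold, 23 at 4-fold, 318 without the array labelled STAT6-KO MI 4 weeks, and 318 to 553 with a time point left out, where 3 pairs had to pass. The 2 genes that differed between MI and control became 0 under normexp, with quantile normalization, when probes were averaged, and without the array labelled STAT6-KO MI 4 weeks. They became 1 under both other scalings and on the 8 arrays alone, 4 with no filter and with every probe, and 0 to 2 with a time point left out. That comparison could not be fitted without the control arrays. The 331 genes that differed between tissues became 48 under normexp, 145 under quantile normalization, 0 to 0 with a time point left out, 555 without the array labelled STAT6-KO MI 4 weeks, and 1444 without the replicate block.

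Under normexp, 9 named genes changed sign: Tescl (0.20), Ano7 (0.031), Trim30e-ps1 (0.50), Syt10 (0.069), AK137776 (0.061), Hnf4g (0.39), Vmn1r84 (0.47), Tmem100 (0.75), and Vmn1r174 (0.69). The cause was not tested. The median of all genes lay between -0.09 and 0.27 over the settings, while the 43 genes of high signal kept their sign in all of them. Of those 43, Ctps2 and Nab2 alone passed under normexp and without each MI time point in turn, and 31 passed without control. Low signal over background limits the dim genes.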
